A study of Arabidopsis thaliana with 30 samples.

Results

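The root of Arabidopsis thaliana is built in zones. At the tip lie the root cap, the stem cell niche and dividing cells, and farther from the tip cells leave division, enlarge their vacuoles, copy their DNA without dividing (endoreduplication) and elongate as their walls are loosened and rebuilt. The 95 probe sets described here were dim in the excised root tip and bright in the tissue above it. They were chosen on these measured values, out of 22746 probe sets on the array. A probe set was kept where its mean in the tip at 4 dpg and in the tip at 8 dpg (days post germination) was at least 1.5 lower on the log2 scale than in both the stump at 0 h and the section, and where its mean signal in the section was at least 200. All levels below are array signals on a linear scale, and all differences are of log2(signal + 32), a scale that makes changes of dim probe sets look smaller than they are.

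All tissue came from seedlings of the accession Col-0. The section, labelled 270 to 340 from the root tip, was harvested immediately (3 arrays), and the design text names it as wounded tissue that does not regenerate. Its age is not labelled. In the time course the distal 130 µm of the root was cut off at 4 dpg and the adjoining 70 µm, the stump, was taken at 0, 5 and 13 h (4 arrays each) and at 22 h (5 arrays). A stump labelled 8 dpg had 3 arrays, and excised tips came from seedlings of 8 dpg (3 arrays) and 4 dpg (4 arrays). Lengths are given in µm by the protocol and in mm by the titles. At least 25 pieces went into the pool of each replicate. Whether replicates were sown separately is not labelled, and the p-values therefore cover no more than the scatter among these arrays.

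The labels of the stump at 8 dpg contradict each other, since the title has it recut at 0 h and the source name has it harvested 192 h after the first cut. Over all probe sets its mean profile correlated with the tip at 8 dpg at r = 0.987, with the tip at 4 dpg at 0.963, with the stump at 22 h at 0.928, with the stump at 0 h at 0.918 and with the section at 0.852. BBM, a transcription factor of the stem cell niche, had a signal of 279.0 ± 41.6 in the stump at 8 dpg (SD, n = 3), 19.3 ± 8.6 in the stump at 0 h (n = 4) and 8.4 ± 3.6 in the section (n = 3), against 223.8 ± 39.5 in the tip at 8 dpg (n = 3) and 163.0 ± 116.6 in the tip at 4 dpg (n = 4). AGL42, a MADS-box gene of the quiescent centre, had 206.5 ± 42.5 in the stump at 8 dpg, 96.5 ± 89.1 in the stump at 0 h and 29.5 ± 22.0 in the section, against 215.3 ± 35.2 in the tip at 8 dpg and 85.6 ± 35.3 in the tip at 4 dpg. The tip at 4 dpg was no higher in AGL42 than the stump at 0 h, so AGL42 did not separate tip from stump at that age. JKD, a zinc finger factor of the niche, did not follow BBM, with 47.2 ± 26.7 in the stump at 8 dpg and 131.7 ± 100.1 in the stump at 0 h, against 87.0 ± 21.4 in the tip at 8 dpg and 92.6 ± 60.9 in the tip at 4 dpg. In its profile over all probe sets, and in BBM, the tissue labelled stump at 8 dpg was nearer to both tips than to the stump at 0 h. BBM was also above its 0 h level in the later stumps, with 147.7 ± 31.3 at 5 h, 115.8 ± 58.0 at 13 h and 121.5 ± 59.4 at 22 h. A BBM level near that of the tip at 4 dpg was therefore not particular to tips. Of the fixed marker lists, 3 of 8 genes of the niche and 1 of 3 genes of hair cells had a named probe set, and none of the root cap, non-hair epidermis, xylem, phloem or endodermis lists had any. The tissue labels could therefore not be checked against those cell types. In such bulk tissue, fewer cells of a type and less RNA per cell cannot be told apart.

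Of the 95 members, 50 could be tied to 1 gene and 3 to several genes, and 42 are unnamed here. One further probe set, 259553_x_at, met the differences but had a mean section signal of 150.0. The members nearest the threshold were AT1G78260, 261492_at and AT5G46230, whose smallest differences were 1.501, 1.51 and 1.511. The nearest outside were 261226_at, 264751_at and 254328_at at 1.499, 1.488 and 1.484. The choice depended on array 2 of the stump at 0 h: without it the rule kept 65 probe sets, of which 61 were among the 95.

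As the rule requires, every member was high in the section and low in the tips. What the rule did not fix is that the section was also above the stump at 0 h in 93 of the 95. The median difference was 1.38, beside -0.228 over all probe sets, and 63 members stood at least 1 higher in the section. Without array 2 of the stump at 0 h the median was 1.66 and the section was higher in all 95. The section had the highest mean of the 8 groups in 86 members. Among the tips, the level at 8 dpg was below that at 4 dpg in 85 members. The median was -0.58, beside -0.096 over all probe sets. Array 1 of the tip at 4 dpg stood apart, and without it the median was -0.25, with 72 members lower at 8 dpg.

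**Figure D1:**
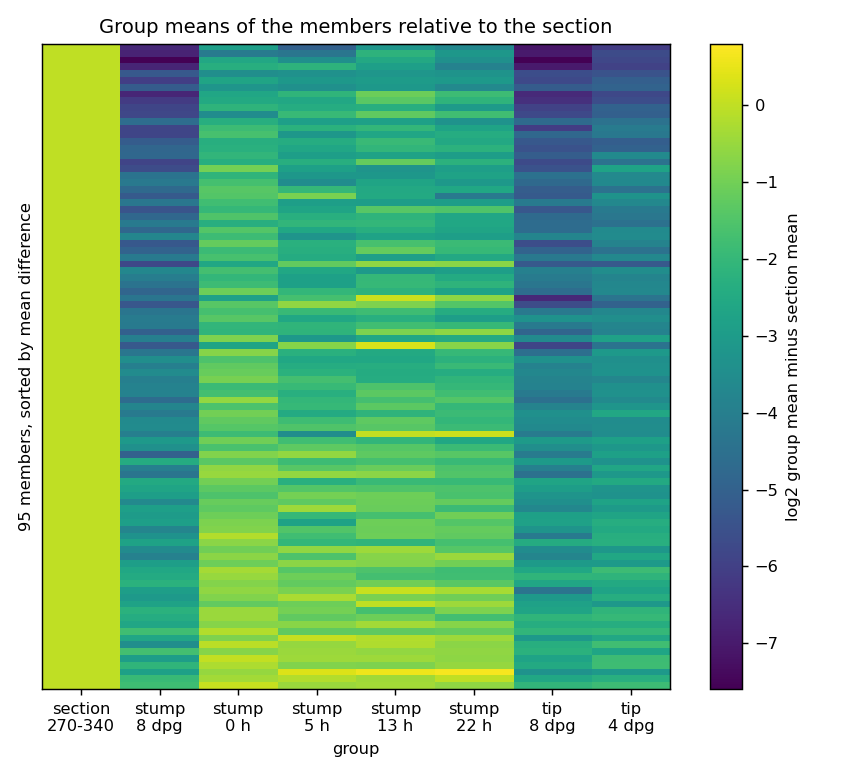
Group means of the 95 members as colours, each row a member and each column a group, as the log2(signal + 32) mean minus that of the section. The column of the stump at 8 dpg is as dark as the tip columns, while the stumps at 0 to 22 h are intermediate and the section is brightest in 86 rows.

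The named members fell into several kinds of protein. Among enzymes of the cell wall and the space around the cell was AT4G30170, a class III peroxidase, of the family that uses hydrogen peroxide to stiffen or loosen walls. Its signals were 7152.1, 10160.7 and 11864.2 in the section, and 369.5, 4577.3, 3254.8 and 1115.1 in the stump at 0 h, against 19.7, 3.5 and 32.7 in the tip at 8 dpg and 283.0, 98.7, 156.9 and 77.2 in the tip at 4 dpg. The section and the tips did not overlap, but arrays of the stump at 0 h varied widely. The peroxidase AT2G18980 averaged 6152.1 ± 2404.3 in the section (SD, n = 3) and 1681.5 ± 1845.9 in the stump at 0 h (n = 4), against 80.6 in the tip at 8 dpg and 292.8 in the tip at 4 dpg. A further member of the family, AT4G11290, named here after its values were seen, had 1236.8, 1267.7 and 1502.4 in the section, against 12.3, 3.1 and 4.4 in the tip at 8 dpg.

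XTH16, a xyloglucan endotransglucosylase/hydrolase that cuts and rejoins wall polymers, averaged 1490.4 ± 311.8 in the section and 297.2 ± 159.1 in the stump at 0 h, against 52.5 in the tip at 4 dpg. Enzymes of pectin were AT1G57590, a pectin acetylesterase, with 1743.9 ± 377.1 in the section, against 47.3 in the tip at 8 dpg, and AT5G51490, a pectin methylesterase, with 474.3 ± 30.9 in the section, against 12.1 in the tip at 8 dpg. CSLA03, of the glucomannan synthase family, averaged 617.1 ± 164.7 in the section, against 3.2 in the tip at 8 dpg. As the selection demands, all of these wall enzymes were higher in the section than in the tips.

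Members tied to vacuoles and storage of solutes included AT1G62660, a vacuolar invertase that splits sucrose, with 7374.2 ± 1458.0 in the section and 1507.3 ± 610.3 in the stump at 0 h, against 156.0 in the tip at 8 dpg and 211.3 in the tip at 4 dpg. AT1G19450, of a sugar transporter family, averaged 1676.9 ± 354.6 in the section and 556.5 ± 213.9 in the stump at 0 h, against 123.6 in the tip at 8 dpg. AT1G04040, of an acid phosphatase family, averaged 5917.0 ± 1287.0 in the section, against 29.6 in the tip at 8 dpg. A relative, AT5G44020, averaged 2498.2 ± 246.1 in the section, against 27.0 in the tip at 8 dpg. OCT5, of the organic cation transporter family, differed from these in that the stump at 0 h, with 531.2 ± 374.3, was about as high as the section, with 487.8 ± 115.8.

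Other members act in signalling, defence and growth. SIM, which blocks cyclin-dependent kinases and favours endoreduplication, had 986.2, 1071.4 and 1334.7 in the section and 1448.5, 1805.6, 342.2 and 334.0 in the stump at 0 h, against 23.9, 32.6 and 4.4 in the tip at 8 dpg. LCR68, a plant defensin, averaged 2116.7 ± 378.2 in the section and 371.7 ± 239.2 in the stump at 0 h, against 27.4 in the tip at 8 dpg. TUB1, a beta-tubulin of the microtubules that guide wall deposition, averaged 3372.1 ± 645.2 in the section and 886.5 ± 724.9 in the stump at 0 h, against 23.1 in the tip at 8 dpg. For SIM the stump at 0 h overlapped the section, whereas for LCR68 and TUB1 every section array lay above every stump array at 0 h. The receptor-like kinases AT4G28650 and AT3G28040 averaged 2057.2 ± 135.2 and 762.1 ± 70.3 in the section, against 34.1 and 51.9 in the tip at 8 dpg.

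**Figure D2:**
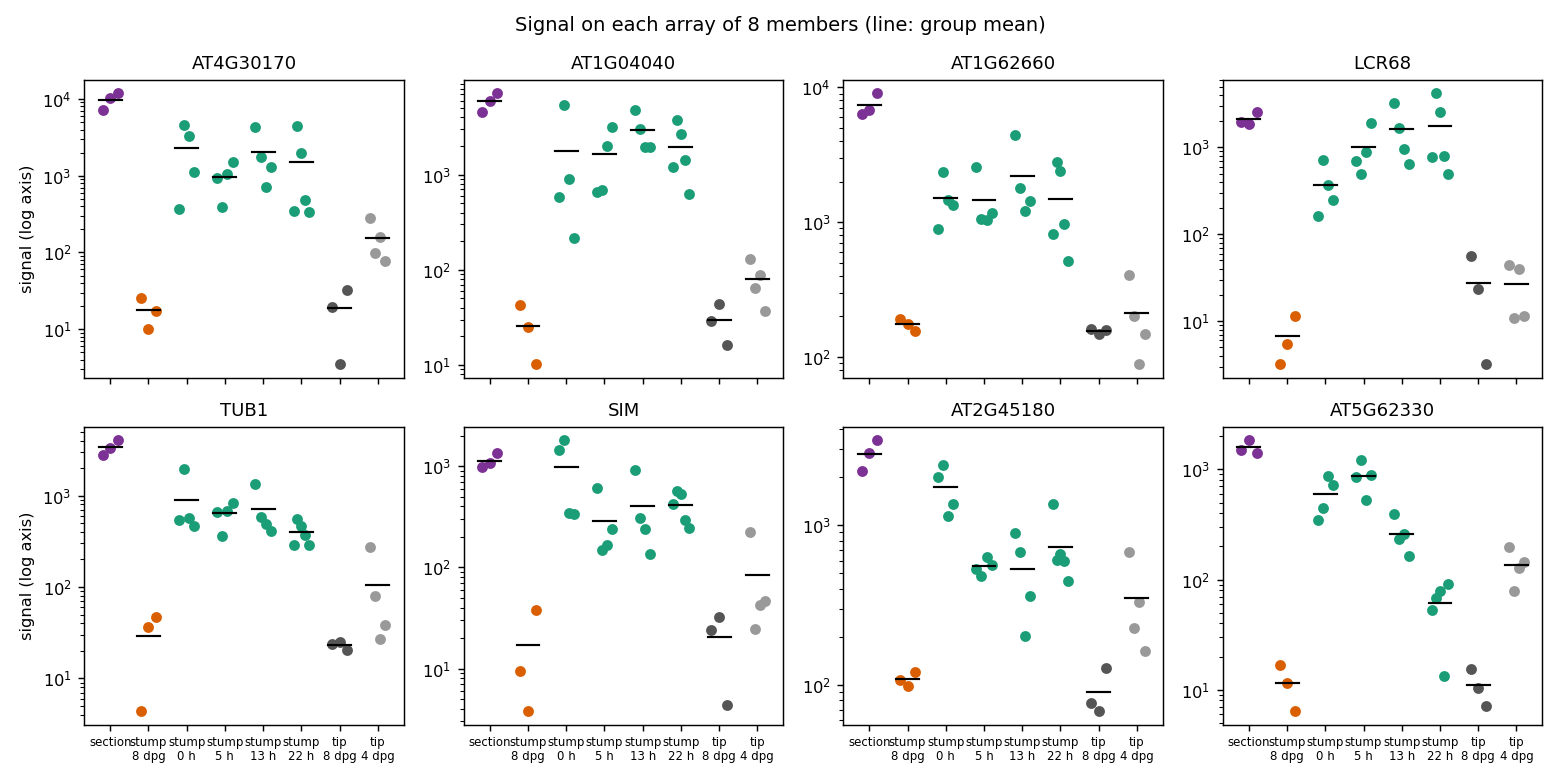
Signal (log axis) of 8 members on each of the 30 arrays, by group, with the group mean as a line. In each panel the 3 arrays of the stump at 8 dpg lie at or near the level of the tip at 8 dpg, and AT5G62330 is the panel in which all 5 arrays at 22 h lie below all 4 arrays at 13 h.

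Of the 4 comparisons among groups that did not choose the members, that of the stump at 8 dpg with the stump at 22 h held most of the calls. By limma's moderated test, adjusted over all 22746 probe sets and called at an adjusted p under 0.05 with a difference of at least 1, 74 of the 95 members were lower in the stump at 8 dpg and 0 were higher. That is 77.9% of the members, beside 3.68% of all probe sets called lower and 2.36% called higher. The difference was negative in all 95, with a median of -2.06 and a range of -5.09 to -0.51, beside a median of -0.118 over all probe sets. Unadjusted, 87 members had a p under 0.05. In 78 members all 3 arrays of the stump at 8 dpg lay below all 5 at 22 h. The same held for 9.32% of all probe sets. These 2 groups differ by their labels in age as well as in time after cutting, and these cannot be told apart. The stump at 8 dpg was also near the tip at 8 dpg over all probe sets (r = 0.987). The rule required low values in that tip and high values in the stump at 0 h. The direction of the difference was therefore not independent of the selection.

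**Figure D3:**
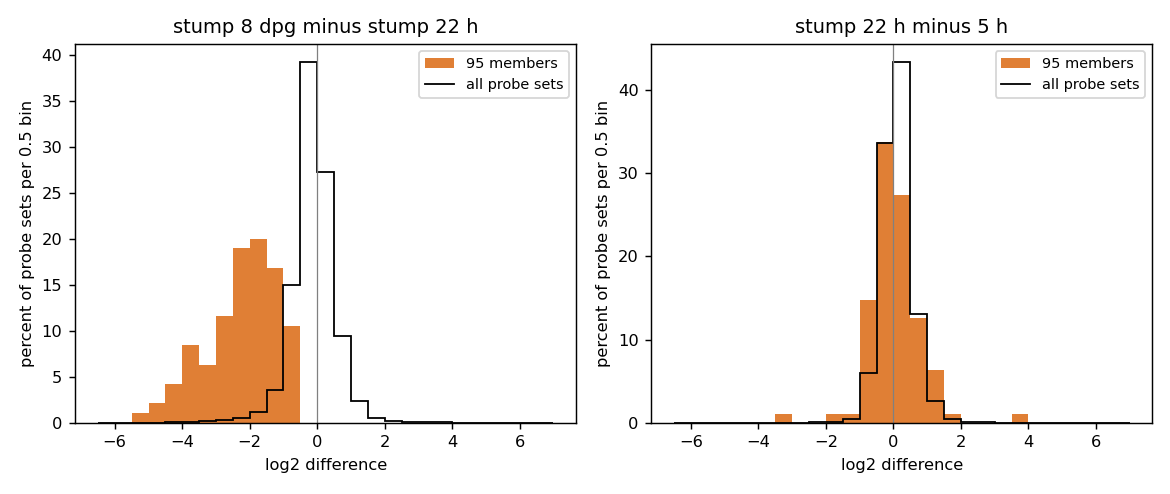
Percent of the 95 members (filled) and of all 22746 probe sets (line) per bin of 0.5 in the log2 difference, for the stump at 8 dpg minus 22 h (left) and the stump at 22 h minus 5 h (right). On the left every member is below 0, with a median of -2.06, while on the right the members straddle 0, with a median of -0.02.

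LCR68 showed the largest fall of any member. Its signals were 3.2, 5.5 and 11.4 in the stump at 8 dpg, against 779.2, 4194.7, 2581.9, 788.4 and 496.5 in the stump at 22 h. The groups did not overlap, and the difference was -5.09 ± 0.517 (SE, adjusted p = 2.04e-08, limma). The acid phosphatase family member AT1G04040 had 42.2, 24.8 and 10.2 in the stump at 8 dpg, against 1192.5, 3772.2, 2662.3, 1432.2 and 631.2 at 22 h. It too was lower on every array, by -4.87 ± 0.597 (adjusted p = 6.57e-07, limma). The peroxidase AT4G30170 had 25.2, 10.1 and 17.3 in the stump at 8 dpg, against 347.7, 4435.3, 1983.6, 475.5 and 333.3 at 22 h. Its difference was -4.22 ± 0.658 (adjusted p = 3.63e-05, limma), and the lowest array at 22 h still lay above the highest at 8 dpg.

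SIM had 9.5, 3.8 and 37.9 in the stump at 8 dpg, against 426.7, 563.1, 529.4, 294.5 and 247.0 at 22 h. The inhibitor was thus lower on every array at 8 dpg, by -3.18 ± 0.519 (adjusted p = 7.16e-05, limma). TUB1 had 4.4, 36.7 and 46.9 in the stump at 8 dpg, against 291.3, 557.0, 469.1, 368.9 and 290.0 at 22 h, a difference of -2.83 ± 0.429 (adjusted p = 2.21e-05, limma). The 5 arrays at 22 h were close together for this tubulin, unlike those of LCR68. The invertase AT1G62660 had 192.0, 174.0 and 156.9 in the stump at 8 dpg, against 819.7, 2773.9, 2377.2, 972.5 and 517.4 at 22 h (difference -2.61 ± 0.428, adjusted p = 7.43e-05, limma). Here the stump at 8 dpg stayed measurable, near the 156.0 of the tip at 8 dpg.

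The other named members were lower in the stump at 8 dpg by smaller or similar amounts. AT1G67330, of a plant family with a conserved domain (DUF579), differed by -3.98 ± 0.461. The peroxidase AT2G18980 differed by -3.68 ± 0.54, AT2G14900, of a gibberellin-regulated family, by -3.62 ± 0.456, and the subtilisin-like protease SBT4.12 by -3.43 ± 0.441. AT1G62480, related to a vacuolar calcium-binding protein, differed by -2.86 ± 0.594, AT1G57590 by -2.85 ± 0.342 and OCT5 by -2.8 ± 0.389. AT5G44020 differed by -2.65 ± 0.582, the leucine-rich repeat receptor kinase AT3G28040 by -2.61 ± 0.26 and CHIL, a chalcone isomerase-like protein of flavonoid synthesis, by -2.59 ± 0.514. All of these passed the test.

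Smaller calls were made for AT2G45180, of a lipid transfer family (-2.34 ± 0.365), CSLA03 (-2.2 ± 0.536), AT5G51490 (-2.12 ± 0.37), the papain-like protease AT3G43960 (-2.07 ± 0.383), AT1G05320 (-1.96 ± 0.596) and AT5G16450 (-1.93 ± 0.599). The call of AT1G05320 was lost in 9 alternatives and that of AT5G16450 in 13. Both were lost when any single array of the stump at 8 dpg was left out. ZW9, of a TRAF-like family, was -1.9 ± 0.31, AT3G62280, of a GDSL lipase family, -1.89 ± 0.314, and the receptor-like kinase AT4G28650 -1.86 ± 0.332. The carboxypeptidase scpl40 was -1.8 ± 0.364, AT3G05900 -1.62 ± 0.416, XTH16 -1.56 ± 0.387 and AT1G19450 -1.51 ± 0.32. For ZW9 the floor was well above that of the others, with 984.1 ± 246.2 in the stump at 8 dpg (SD, n = 3), against 4152.6 ± 2413.5 at 22 h (n = 5), and with 891.8 in the tip at 8 dpg.

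In the 21 members that did not pass, the differences were also negative. Named after their values were seen, AT4G11290 had a difference of -1.50 ± 0.489 (adjusted p = 0.0558, limma), the pectate lyase AT3G07010 one of -1.24 ± 0.544 (adjusted p = 0.176) and the transcription factor BZIP61 one of -0.86 ± 0.502 (adjusted p = 0.349). BZIP61 had 9.2, 8.4, 120.6, 101.6 and 5.8 at 22 h, so that 3 of those arrays were as dim as the tips.

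The stump at 8 dpg minus the tip at 8 dpg gave a median of 0.04 over the members, beside -0.01 over all probe sets. This is a description, since the tips chose the members. The 2 groups were alike over all probe sets as well (r = 0.987), so this nearness was not particular to the members. In 91 members the means were within 1, and every one of the 95 was within 1 of the higher tip mean or below it. Outside that range on the high side were CHIL, with 131.1 ± 16.1 in the stump at 8 dpg, against 31.0 in the tip at 8 dpg, and the unnamed probe set 250207_at, with 207.2, against 16.7. On the low side were SBT4.12, with 32.4 ± 7.4, against 102.1, and OCT5, with 15.5 ± 8.9, against 69.2.

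Between 5, 13 and 22 h few members passed the test. For the stump at 13 h minus 5 h, 1 member was called higher and 1 lower, beside 0.229% and 0.145% of all probe sets, and the median was 0.20, with 65 positive and 30 negative, beside a median of 0.026 over all probe sets. For 22 h minus 5 h, 1 was called higher and 2 lower, beside 1.17% and 0.352%, and the median was -0.02, with 46 positive and 49 negative, beside 0.094 over all probe sets. For 22 h minus 13 h, 0 were called higher and 1 lower, beside 0.00879% in each direction, with 24 positive, 71 negative and a median of -0.24, beside 0.064 over all probe sets. Unadjusted p-values under 0.05 were found in 17, 12 and 6 members in the order of these comparisons, all by limma. The comparisons share arrays in pairs and are not independent. In simulated data, 40.3%, 41.8% and 29.9% of 2-fold changes were recovered in the same order. Few calls therefore do not show that the members held steady.

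The lower call in all 3 was AT5G62330, a gene of unassigned role. Its signals were 856.7, 1214.3, 523.5 and 887.4 at 5 h, 391.7, 232.3, 258.8 and 163.1 at 13 h and 52.9, 67.7, 79.1, 13.3 and 90.7 at 22 h. The groups at 5, 13 and 22 h did not overlap and descended in that order, and the stump at 8 dpg had 16.9, 11.4 and 6.4. The differences were -1.62 ± 0.313 for 13 h minus 5 h (adjusted p = 0.00782), -1.68 ± 0.297 for 22 h minus 13 h (adjusted p = 0.0238), -3.30 ± 0.297 for 22 h minus 5 h (adjusted p = 1.11e-08) and -1.02 ± 0.323 for the stump at 8 dpg minus 22 h (adjusted p = 0.0476), all by limma. The first of these calls was lost without stump 5 h array 2 or stump 13 h array 4 and with a pseudocount of 1. The second was lost without stump 13 h array 1, 2 or 3 or stump 22 h array 1 or 4, and in 3 other alternatives. The call at 8 dpg was lost in 15 alternatives. The call for 22 h minus 5 h held in every alternative. At 22 h AT5G62330 was already below the 136.2 of the tip at 4 dpg.

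The unnamed probe set 249375_at moved the other way. It had 236.0, 131.4, 151.7 and 300.4 at 5 h, 9679.1, 2928.6, 799.4 and 1748.3 at 13 h and 1848.1, 8733.2, 8089.0, 741.3 and 1455.3 at 22 h. Every array at 13 and 22 h lay above every array at 5 h, by 3.49 ± 0.763 at 13 h (adjusted p = 0.0272, limma) and by 3.59 ± 0.723 at 22 h (adjusted p = 0.00458, limma). In the stump at 8 dpg it had 147.2, 133.1 and 107.9, near the 5 h level. The call at 13 h was lost without stump 5 h array 2, 3 or 4 or stump 13 h array 1, 2 or 4 and with trend=FALSE, and the call at 22 h was lost when arrays 2 and 3 of that group were left out. The unnamed 254385_s_at was lower at 22 h than at 5 h, by -1.44 ± 0.231 (adjusted p = 0.000372, limma).

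Set beside the stump at 0 h, whose values chose the members, the later stumps are described without a test. The median differences from 0 h were -0.49 at 5 h, -0.20 at 13 h and -0.58 at 22 h. Over all probe sets they were -0.147, -0.115 and -0.05. Without array 2 at 0 h the medians of the members were -0.17, 0.14 and -0.28. Without array 1 at 13 h the median at 13 h was -0.48, with 26 members above 0 h and 69 below. The sign at 13 h thus turned without array 2 at 0 h and stayed negative without array 1 at 13 h. At 22 h 67 members were within 1 of their level at 0 h or above it, 17 were within 1 of the higher tip mean or below it, 6 lay between and 5 met both descriptions. Members at least 1 above 0 h numbered 7, of which LCR68 was the named one, with 1768.1 ± 1589.4 at 22 h, against 371.7 ± 239.2 at 0 h, and the unnamed 250207_at, at 2.17, had the largest difference. AT5G62330 was lowest relative to 0 h, with 60.7 ± 30.0, against 596.4 ± 244.6. AT2G45180 had 483.1 to 630.3 at 5 h, against 1132.9 to 2375.3 at 0 h, and the groups did not overlap.

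**Figure D4:**
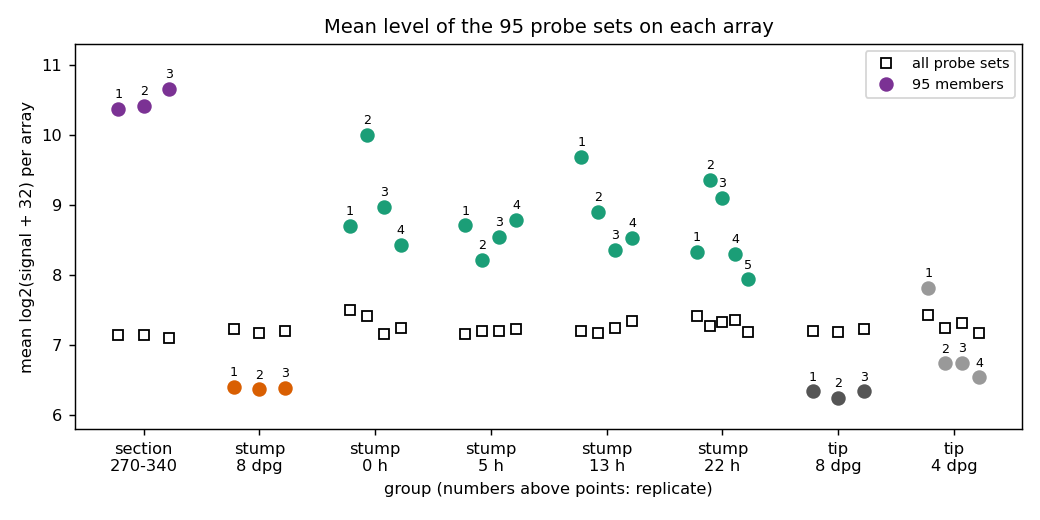
Mean log2(signal + 32) of the 95 members (filled circles) and of all 22746 probe sets (open squares) on each array, by group, with replicate numbers. The members span 10.37 to 10.66 in the section, 6.37 to 6.40 in the stump at 8 dpg, at least 7.94 over the stumps of 0 to 22 h and 6.25 to 7.82 in the tips, while the squares differ little between arrays, with 7.11 to 7.50.

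Arrays of the early stumps differed in the members as a set, as did those of the tip at 4 dpg. The mean log2 level over the 95 spanned 1.57 between the lowest and the highest array at 0 h. The span was 0.57 at 5 h, 1.33 at 13 h, 1.42 at 22 h and 1.28 in the tip at 4 dpg. It was 0.29 in the section, 0.09 in the tip at 8 dpg and 0.03 in the stump at 8 dpg. At 0 h array 2 was the highest of its group in 72 members, at 13 h array 1 in 85, and at 22 h array 2 in 53. After subtraction of group means, a member's values over the 17 stump arrays of 0 to 22 h correlated with the mean of the other members with a median r of 0.72, and 72 members exceeded 0.5. Other probe sets had a median of -0.03 with the same mean, and 7.41% exceeded 0.5. Over the 13 arrays at 5, 13 and 22 h, with the 0 h arrays that the rule used set aside, the medians were 0.74 for members and -0.07 for other probe sets. The members on an array share its pool of tissue and its labelling.

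Over the 17 arrays, TUB1, with r of 0.91, LCR68, with 0.90, and AT2G18980 and AT1G62480, with 0.89 each, followed the mean of the other members most closely among the named members. Of the 30 named members, AT5G62330, with 0.11, and AT1G57590, with 0.29, followed it least. Over all 95 the lowest was AT5G06610, with -0.15. The hair cell marker EXPA7, an expansin that is not a member, had 657.3 in stump 13 h array 1 and 704.7 and 587.4 in stump 22 h arrays 2 and 3, and 9.9 to 138.6 on the other 10 arrays of 5, 13 and 22 h. Those 3 arrays also had the highest member means at 13 and 22 h, of 9.69, 9.36 and 9.10. At 0 h EXPA7 had 154.1, 128.4, 62.1 and 66.8, and array 2, with the highest member mean, was not the highest. EXPA7 had 45.7, 73.3 and 11.1 in the section, where the members were highest, and 71.4, 28.4 and 8.8 in the stump at 8 dpg. Its part in the spread between arrays was not tested. With stump 22 h arrays 2 and 3 left out, 56 of the 95 members were still called lower in the stump at 8 dpg and 0 higher.

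Median signals over all probe sets ran from 66.1 to 141.8, and 4 arrays lay above 120: tip 4 dpg array 1, stump 0 h arrays 1 and 2 and stump 22 h array 1. Without these 4 arrays, 82 members were called lower in the stump at 8 dpg than at 22 h. When the members were chosen without array 2 of the stump at 0 h, 53 of 65 were called lower, and when chosen without array 1 of the tip at 4 dpg, 96 of 123.

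Gene lists were followed over all their named probe sets in the stump at 8 dpg minus 22 h, where 3.68% of all probe sets were called lower and 2.36% higher. Counts of lists that hold members include members chosen by the rule. Of the class III peroxidases, 55 of 73 genes had a named probe set and 3 were members. Of the 55, 19 were called lower than at 22 h and 3 higher, with a median of -0.58, and among the 52 that were not members 17 were lower and 3 higher. Of 10 xyloglucan endotransglucosylases 3 were lower, including XTH16, of 15 plant defensins 3 were lower, including LCR68, and of 7 tubulins TUB1 was the 1 called lower. None of 19 expansins was a member, and 3 were called lower. Of 38 glycosyl hydrolases 2 were called lower and 2 higher, and of 28 genes of cytochrome P450, on 29 probe sets, 1 was called lower, shares near those of all probe sets. The medians were -0.73 for the xyloglucan enzymes, -0.27 for defensins, -0.11 for tubulins, -0.44 for expansins, -0.30 for glycosyl hydrolases and -0.09 for cytochrome P450. Of the mitosis list 3 of 9 genes were measured and none was called in this comparison, and of the list of endoreduplication and cell cycle inhibitors 2 of 8 were measured, with SIM as the 1 called lower.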

How the data were processed

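The authors deposited 1 MAS5 signal intensity per probe set and array, per the submitters' processing notes; no version of MAS5 is given in the sources used here. Per the labels' protocols, 50 ng of total RNA was amplified in the two-cycle protocol. Means trimmed by 2% at each end were alike on all arrays (246.5 to 248.6), so the intensities were not scaled again. Control probe sets were left out. Intensities were transformed as log2(signal + 32), and 1 model with a mean for each group was fitted to all 30 arrays in limma 3.58.1 (R 4.3.3, eBayes, trend=TRUE). P-values were adjusted after Benjamini and Hochberg over 22746 probe sets. The model was tested on simulated data with independent noise. Over the 4 comparisons it recovered 29.9% to 41.8% of 2-fold changes and 94% to 98.5% of 4-fold changes. No detection calls or scan dates were used. Names came from a table of the platform's probe sets, in which 13513 had 1 gene, 503 had several and 8730 were unlisted.

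The tips, the stump at 0 h and the section chose the members, so every difference that involves them is a description. The 4 contrasts among the other groups were tested. The members and lists were chosen with earlier results of these data known, and the list of peroxidase gene IDs was added after the files were seen. Named are members with 1 gene that were called in a comparison, belonged to a list or were among the 12 brightest in the section, up to 30 in order of section signal. Called members and members of the first lists came before the rest and filled all 30 places, and every called member was called lower in the stump at 8 dpg. The added peroxidase list did not enter this choice. Alternatives were a pseudocount of 1 and a larger one, median centring, quantile normalization, trend=FALSE, omission of the dimmest 40% of probe sets, only the groups compared, a replicate block, array weights, leaving out the 4 arrays of high median, and each array left out. Figures were drawn with matplotlib 3.10.9.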

Additional observations from a re-analysis of the deposited data

Results flagged for a closer look

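Arrays that stood apart from the rest of their group were sought by Dixon's criterion in the member mean and the 30 named members, over groups of 4 or 5 arrays. Of 155 sets of values 6 held such an array. The sets share arrays, and the members moved together within arrays, so this count cannot be weighed against chance. The mean log2 level of the 95 members was 7.82 on array 1 of the tip at 4 dpg, above 6.54 to 6.75 on the others. On stump 0 h array 2, TUB1 had 1972.0, above 467.6 to 565.1, and AT3G62280 had 1056.4, above 401.1 to 435.5. On stump 5 h array 1, AT1G62660 had 2553.3, above 1033.0 to 1176.2, and CHIL had 1569.8, above 432.3 to 488.0. ZW9 had 4031.9 on stump 5 h array 4, below 4761.5 to 4913.1. Tip 4 dpg array 1 and stump 0 h array 2 are also among the 4 arrays of high median signal, and their part in these values was not tested.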

How the results depend on the processing

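The number of members depended on the settings of the rule: 95 as reported, 150 with a pseudocount of 1 (94 of the 95 among them), 36 with the larger pseudocount, 234 with a difference of 1 and 40 with 2, and 65 to 123 with 1 array left out. The call of 74 members lower in the stump at 8 dpg than at 22 h stayed between 58 (larger pseudocount) and 84 (array weights) under the planned settings, and between 61 and 75 with 1 array left out, with 0 higher in each. Alternatives added after the data were seen left out stump 22 h arrays 2 and 3 (56) or chose the members without an array (53 of 65, 96 of 123). In 53 members this call held in every planned setting, and in 23 of the 30 named. It was lost in at least 1 planned setting for AT1G05320, AT3G05900, AT5G16450, AT5G62330, CSLA03, XTH16 and scpl40, and for AT5G44020 without stump 22 h arrays 2 and 3. No named member changed direction in a call.

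For 13 h minus 5 h, 2 calls became 1 with a pseudocount of 1 or trend=FALSE, 6 with only the groups compared, 4 without the 4 arrays of high median and 0 to 2 with 1 array left out. For 22 h minus 5 h, 3 calls became 5 without those 4 arrays and 3 to 5 with 1 array left out. Without stump 22 h array 2, AT1G57590 and AT1G62480 were among the 5. For 22 h minus 13 h, 1 call became 0 with the larger pseudocount, median centring or only the groups compared, and 0 to 1 with 1 array left out. The replicate block gave 3, 6, 1 and 76 calls for 13 h minus 5 h, 22 h minus 5 h, 22 h minus 13 h and 8 dpg minus 22 h. Same-numbered arrays deviated together with r of -0.145 to 0.238, and whether they share more than a number is not labelled. The cause of these changes was not tested. Array numbers and dim signals limit the precision, and differences of dim probe sets near the pseudocount of 32 are understated.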
